A study of Mus musculus with 15 samples.

Results

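The 10 genes described here encode enzymes that make serine and glycine, break glycine down, or carry methyl groups from choline, betaine and methionine. They are Phgdh, Psat1, Psph, Shmt1, Shmt2, Gldc, Chdh, Bhmt, Mat1a and Gnmt, and they are 10 of the 21755 protein-coding genes annotated on chromosomes 1 to 19 and X of the mouse build mm10. They were chosen by values measured in these same libraries, namely whether an island of H3K4me3 lay within 1 kb of any transcription start site (TSS) of the gene, and the position, width and score rank of that island. The values below are therefore a description, and no test was made on them.

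H3K4me3, a histone H3 mark (trimethyl-lysine 4) common at the promoters of transcribed genes, was profiled in the livers of 15 C57BL/6 females (C57BL/6J in the study's methods) from 6 litters by PAT-ChIP-seq, which immunoprecipitates chromatin from sections of fixed tissue in paraffin. The 3 mice of each group received a standard diet (SD), a calorie-restricted portion of that diet (CR), a high-fat diet (HF), or the standard diet with its maize replaced by yellow corn free of anthocyanins (YD) or by purple corn rich in anthocyanins (RD). All groups except CR ate ad libitum, feeding began at 3 months of age and lasted 10 months, and the labels give the age as 12 months. Each mouse gave 1 list of islands, which are runs of windows enriched in reads, so n = 3 per diet and all values after ± are standard deviations over mice. Whole liver sections were used, so a mark lost from each cell and a mark kept in fewer cells cannot be told apart. Counts per library were compared between diets to ask how each diet bears on H3K4me3 at promoters, with SD as the reference, and between RD and YD, which differ in the corn.

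Serine is made from a glycolytic intermediate by Phgdh, Psat1 and Psph in turn, and the hydroxymethyltransferases Shmt1, in the cytosol, and Shmt2, in mitochondria, convert serine to glycine while passing a carbon unit to folate. Gldc opens the glycine cleavage system. In the liver, Chdh oxidises choline towards betaine, Bhmt moves a methyl group from betaine to homocysteine to give methionine, Mat1a turns methionine into S-adenosylmethionine, and Gnmt uses S-adenosylmethionine to methylate glycine.

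The start regions that the results turn on are shown as they stand in RefSeq for GRCm38.p6 (mm10), which held a promoter for 9 of the 10 members and none for Mat1a. Each is read 5′ to 3′ on the strand of the gene and ends on the base before the RefSeq start, with each CpG in capitals. Shmt2 (chr10:127522445-127522694, minus strand) is shown because its island was missing in all 3 RD libraries. For Chdh (chr14:30008897-30008999, plus strand) the 103 bases are those between its RefSeq start and the outermost GENCODE start of Il17rb, a cytokine receptor gene on the other strand. The main TSS of Chdh used for islands, from GENCODE, lies 23 bp further into the gene. This stretch is shown since the island at these starts was missing in the 6 libraries of both corn diets. Gnmt (chr17:46729166-46729415, minus strand) and Phgdh (chr3:98339970-98340219, minus strand) are set side by side because they hold nearly the same number of CpGs, and islands in 15 and in 0 of the 15 libraries.
Shmt2: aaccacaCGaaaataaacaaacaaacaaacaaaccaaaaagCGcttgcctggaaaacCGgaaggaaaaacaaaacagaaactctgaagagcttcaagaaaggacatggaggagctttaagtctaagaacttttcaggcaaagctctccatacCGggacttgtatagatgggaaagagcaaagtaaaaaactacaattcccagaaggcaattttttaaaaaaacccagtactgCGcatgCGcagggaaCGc
Chdh to Il17rb: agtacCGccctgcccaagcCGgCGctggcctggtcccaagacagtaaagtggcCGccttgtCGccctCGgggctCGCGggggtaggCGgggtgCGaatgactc
Gnmt: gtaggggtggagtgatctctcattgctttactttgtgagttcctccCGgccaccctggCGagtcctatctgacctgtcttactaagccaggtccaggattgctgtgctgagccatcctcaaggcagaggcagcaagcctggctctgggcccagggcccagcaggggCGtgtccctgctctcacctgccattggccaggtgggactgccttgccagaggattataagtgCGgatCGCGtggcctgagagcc
Phgdh: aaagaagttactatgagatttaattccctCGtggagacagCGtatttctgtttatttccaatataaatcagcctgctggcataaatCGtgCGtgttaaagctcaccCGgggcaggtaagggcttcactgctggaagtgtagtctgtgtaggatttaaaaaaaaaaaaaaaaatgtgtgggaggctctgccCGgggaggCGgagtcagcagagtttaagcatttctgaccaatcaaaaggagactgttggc

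The 250 bases before the start held 7 CpGs in Shmt2, 6 in Gnmt and 7 in Phgdh, below the median of 10 over 16433 promoters of protein-coding genes. Chdh held 20 in its 250 bases, of which 10 lie in the 103 bases printed, and the other members with a promoter held 23 (Psph), 16 (Psat1), 13 (Shmt1), 8 (Gldc) and 5 (Bhmt). Of all promoters with 5 to 9 CpGs, 44.9% had an island in no library and 7.64% in all 15, so the contrast between Phgdh and Gnmt joins both ends of a range that other genes of this CpG content fill as well. Among promoters with 20 or more CpGs, 13.0% had an island in no library. The letters TATAAA, on either strand, stood in 1 of the 9 members, Phgdh, at position -189 counted back from the start, and in 11.9% of all promoters. CCAAT stood in 7 of 9 members and in 36.2% of promoters, and GGGCGG in 4 of 9 and in 44.5%. Shmt2 held none of the 3 words in this window.

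The 15 lists held from 7825 islands (mouse YD 1) to 33752 (CR 3), and the reads behind them, recovered from the scores, ran from 5589269 (CR 1) to 15449854 (YD 1), so the deepest library gave the shortest list. An island lay within 1 kb of a TSS in 39.6% ± 5.98 of protein-coding genes under SD, 43.4% ± 6.92 under CR, 51.2% ± 3.53 under HF, 22.8% ± 4.69 under YD and 31.2% ± 3.46 under RD. The 5 libraries CR 1, CR 2, HF 2, HF 3 and RD 1 have PATChIP in their names and the other 10 have ChIP, which takes in all of SD and YD, so these 2 groups share the form of their names. Of 10 hepatocyte marker genes, 6 to 10 had an island in every library, and of 10 genes specific to other organs, at most 1 had. Of 6 endothelial markers, 3 to 6 had an island in HF, 0 to 4 in SD, 1 or 2 in CR, 0 or 1 in RD and 0 in YD, and of 6 Kupffer cell markers, 0 to 3 had one in HF and 0 in all other libraries. The part of these markers, and of depth and library name, in the values of the members was not tested.

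Members with an island numbered 8, 7 and 8 of 10 in the 3 SD mice (7.67 ± 0.577). The counts were 5, 8 and 8 under CR (7 ± 1.73), 9, 7 and 8 under HF (8 ± 1), 7, 6 and 4 under YD (5.67 ± 1.53) and 5, 5 and 5 under RD (5 ± 0). All 3 RD mice lay below all SD mice, whereas YD, CR and HF overlapped SD in range. The mean differed from SD by -2.67 members in RD and -2 in YD, both over the larger standard deviation of the pair, and by -0.667 in CR and 0.333 in HF, both under it. Without mouse CR 1 the difference of CR became 0.333, and without mouse HF 1 that of HF became -0.167. Without mouse YD 3 the difference of YD became -1.17, under the standard deviation of the 3 YD mice, and with the 7825 highest-scoring islands of every list it was -1. RD differed from YD by -0.667 members, within the spread of YD, while its share of all protein-coding genes was higher. That difference was -1.5 without mouse YD 3, 0 without mouse YD 1 and -1.33 with the 7825 highest-scoring islands. It was 0 with a TSS required inside the island, and its sign turned, to 0.667, with islands at or above the median score.

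**Figure D1:**
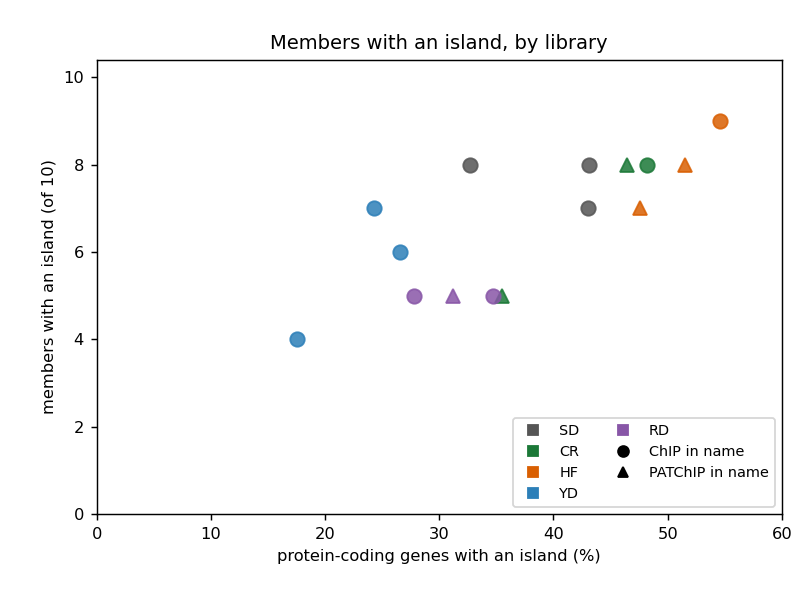
Number of the 10 members with an island (vertical axis) against the share of protein-coding genes with an island in the same library (horizontal axis, %), 1 point per mouse, coloured by diet and shaped by library name. RD mice sit at 5 members with 27.8% to 34.7% of coding genes marked, level with mouse CR 1 at 35.5%, while YD mouse 1 holds 7 members at 24.3%.

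Over single members the islands split into 3 kinds. Psph, Mat1a and Gnmt had one in all 15 libraries, Phgdh in none and Psat1 in 1, and the other 5 members in between, with 14 for Shmt1, 13 for Bhmt, 11 for Shmt2 and 8 each for Gldc and Chdh. Beside these, 9.46% of protein-coding genes had an island in all 15 libraries and 40.0% in none. Of the 100 islands counted at the members, 78 held a TSS of the gene, the farthest lay 429 bp from one (Gldc, mice HF 1 and YD 1), and the nearest island that was not counted lay 16573 bp from one (Shmt1, mouse YD 3), so no member stood near the limit of 1 kb. An island's score, a sum of the Poisson surprise of its windows, is not scaled between libraries, so it is given as its percentile among all islands of the same list, where 100 is the top. The middle island at a protein-coding TSS stood at percentile 60.7 to 84.5, depending on the library.

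**Figure D2:**
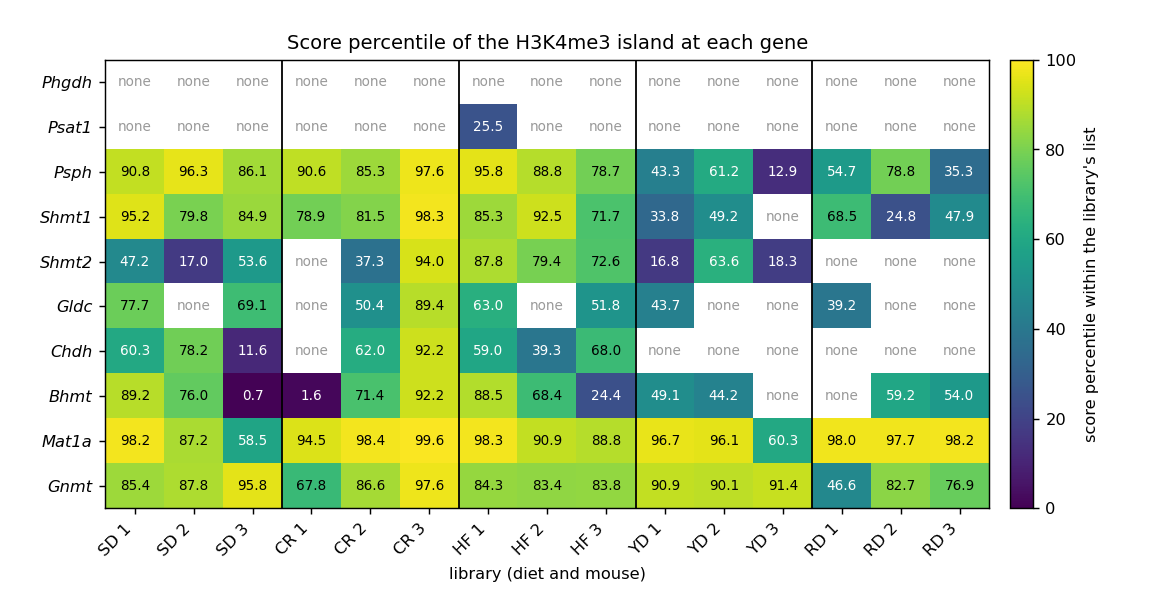
Score percentile of the island at each member (rows) in each library (columns, by diet and mouse), with colour and printed number giving the percentile within that library's list and white cells marking no island within 1 kb. The rows of Shmt2 and Chdh are empty in all 3 RD libraries, Chdh also in all 3 YD libraries, and Mat1a lies between 58.5 and 99.6 throughout.

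The genes of serine synthesis differed most from one another. Phgdh, the enzyme of the committed step (chr3:98313170-98339990, minus strand), had no island near any of its 4 TSSs in any library. The nearest islands lay 40411 to 45613 bp away, at the starts of other genes. Psat1, the aminotransferase of the next step (chr19:15904678-15947337, minus strand), had an island of 1000 bp at percentile 25.5 in mouse HF 1 alone, over its first exon, and elsewhere the nearest island lay 37064 to 832864 bp away. The list of mouse HF 1 also marked the largest share of protein-coding genes, 54.6%.

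Psph, the phosphatase of the last step (chr5:129765558-129787449, minus strand), had an island in every mouse. Its percentiles were 90.8, 96.3 and 86.1 in SD, 90.6, 85.3 and 97.6 in CR, and 95.8, 88.8 and 78.7 in HF. They were 43.3, 61.2 and 12.9 in YD and 54.7, 78.8 and 35.3 in RD. All 6 values of the corn diets were below all 6 of SD and CR, and the highest of them, in mouse RD 2, reached 78.8 where the lowest HF value was 78.7. The share of all protein-coding genes for these joined diets was not computed. Among genes with an island in all 6 lists, 25.3% of 2474 lay below SD in YD and 6.89% of 3962 in RD. The mean was 91.1 ± 5.11 in SD, 39.2 ± 24.4 in YD and 56.3 ± 21.8 in RD, and the corn-fed mice spread more widely than those of SD. The widths overlapped, at 2533 ± 643 bp in SD, 1667 ± 1007 in YD and 1400 ± 693 in RD.

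Of the pair that exchanges serine and glycine, the cytosolic Shmt1 (chr11:60788104-60811718, minus strand) had an island in all libraries but YD 3. Its percentiles were 95.2, 79.8 and 84.9 in SD, 78.9, 81.5 and 98.3 in CR and 85.3, 92.5 and 71.7 in HF. They were 33.8 and 49.2 in mice YD 1 and YD 2, and 68.5, 24.8 and 47.9 in RD. Every percentile in a corn-fed mouse was below every percentile in the other 9 mice. The RD islands were also narrower, at 2000, 1600 and 1600 bp against 4400, 2200 and 2400 bp in SD, which did not overlap, and the mean widths were 1733 ± 231 and 3000 ± 1217 bp.

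The mitochondrial Shmt2 (chr10:127517123-127522444, minus strand) had an island in 11 libraries and in none of RD. Its percentiles were 47.2, 17.0 and 53.6 in SD, 87.8, 79.4 and 72.6 in HF and 16.8, 63.6 and 18.3 in YD. In CR it had none in mouse 1, and stood at 37.3 and 94.0 in mice 2 and 3. All HF values were above all SD values, with means of 79.9 ± 7.62 and 39.2 ± 19.5, while YD overlapped SD. In the 3 RD libraries and CR 1 the nearest island lay 94957 to 97157 bp from the gene, at Lrp1. Enrichment too weak to be called as an island would not appear in the lists. Where present the island was 800 to 3000 bp wide, began at a median of 44 bp inside the gene, next to the sequence printed above, and reached at most exon 5 of 12.

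Some of the Shmt2 islands were weak ones. Those of SD 2, YD 1 and YD 3 ranked at 12088 of 14681, 6514 of 7825 and 8532 of 10906. With only islands at or above the median score of each list, Shmt2 kept an island in 6 libraries, and with the 7825 highest-scoring islands of every list in 7, and under neither was it missing in RD and present in all mice of SD or YD.

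Gldc, the decarboxylase that binds glycine (chr19:30098447-30175429, minus strand), had an island in 8 libraries and in every diet. The percentiles were 77.7 and 69.1 in SD 1 and SD 3, 50.4 and 89.4 in CR 2 and CR 3, and 63.0 and 51.8 in HF 1 and HF 3. Among corn-fed mice only YD 1, at 43.7, and RD 1, at 39.2, had one, the lowest of the 8 values. Each diet thus had mice with and without an island. The island held the main TSS in 1 of 8 cases. It reached exon 2 and was 2200 to 3800 bp wide, except in RD 1, where it went no further than exon 1 and was 800 bp wide.

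Chdh, the choline dehydrogenase (chr14:30009023-30040527, plus strand), had an island in 8 of the 9 mice of SD, CR and HF and in 0 of the 6 corn-fed mice. The share of all protein-coding genes with such a split was not computed. Of these genes, 3.5% had an island in all SD mice and no YD mouse, and 1.05% in all SD mice and no RD mouse. The percentiles were 60.3, 78.2 and 11.6 in SD, 62.0 and 92.2 in CR 2 and CR 3, and 59.0, 39.3 and 68.0 in HF. SD, CR and HF overlapped, and CR 1 was the single mouse of these diets without one. In the 7 libraries without it the nearest island lay 29023 to 39223 bp from the gene, at Actr8 or Selenok. The start of Il17rb, on the opposite strand across the bases printed above, lay inside 7 of the 8 islands, so the mark cannot be assigned to Chdh rather than to Il17rb. The exception was SD 1, whose island began 178 bp inside Chdh.

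Bhmt, the betaine methyltransferase (chr13:93616675-93637961, minus strand), had an island in 13 libraries. The percentiles were 89.2, 76.0 and 0.7 in SD, 1.6, 71.4 and 92.2 in CR and 88.5, 68.4 and 24.4 in HF. They were 49.1 and 44.2 in YD 1 and YD 2, and 59.2 and 54.0 in RD 2 and RD 3. SD, CR and HF each spanned most of the list from mouse to mouse, and the 4 corn values lay inside the range of each. The islands lay to the inside of the gene, beginning at a median of 361 bp past the main TSS, in the first exon or intron, and only those of SD 1 and SD 3 held it.

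Mat1a, the liver form of methionine adenosyltransferase (chr14:41105035-41124412, plus strand), had the highest islands of the 10 members, with a median percentile of 96.7. The percentiles were 98.2, 87.2 and 58.5 in SD, 94.5, 98.4 and 99.6 in CR and 98.3, 90.9 and 88.8 in HF. They were 96.7, 96.1 and 60.3 in YD and 98.0, 97.7 and 98.2 in RD. SD and YD each held 1 mouse near 60, and the 3 RD values were above all YD values. With percentiles taken only among islands at protein-coding TSSs, RD and YD overlapped. The island was wide, at 5600 ± 721 bp in CR and 3200 ± 1442 bp in SD, and the 3 CR widths, 5000, 5400 and 6400 bp, were above the 3 of SD, 4800, 2800 and 2000 bp. It ran from the start into the gene, as far as exon 3 of 10 in 8 mice or exon 2 in the other 7.

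Gnmt, the glycine methyltransferase (chr17:46725664-46729168, minus strand), had an island in every mouse. The percentiles were 85.4, 87.8 and 95.8 in SD, 67.8, 86.6 and 97.6 in CR and 84.3, 83.4 and 83.8 in HF. They were 90.9, 90.1 and 91.4 in YD and 46.6, 82.7 and 76.9 in RD. YD stayed within the range of SD, whereas RD lay below both SD and YD in all mice, with means of 68.7 ± 19.4 against 89.7 ± 5.43 and 90.8 ± 0.669. Mouse RD 1, the lowest, is the RD library with PATChIP in its name, and the part of library name in the Gnmt values was not tested. The HF values were just under those of SD, and overlapped SD when percentiles were taken among islands at protein-coding TSSs.

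**Figure D3:**
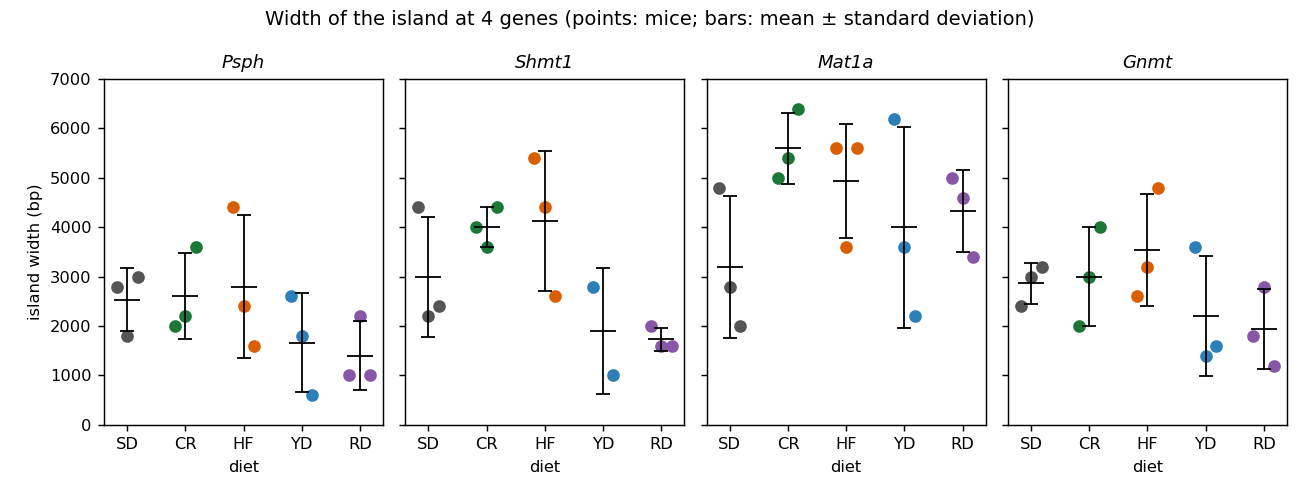
Width in bp of the island at Psph, Shmt1, Mat1a and Gnmt by diet, 1 point per mouse with an island, with the mean and standard deviation as bars (n = 3, except n = 2 for Shmt1 in YD). The Shmt1 islands of RD, at 1600 to 2000 bp, lie below those of SD, at 2200 to 4400 bp, and the Mat1a islands of CR, at 5000 to 6400 bp, above those of SD.

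The midpoint of the island lay past the main TSS in 7 of the 9 members with an island, a share of 77.8% against 80.2% over all protein-coding genes. That midpoint, as a median over libraries, lay 1966 bp past the main TSS in Mat1a, 1561 in Bhmt, 1529 in Gldc, 1315 in Shmt1, 1168 in Gnmt and 944 in Shmt2, against a median of 442.5 bp over the 13044 protein-coding genes with an island and a main TSS. Chdh, at 427.5 bp, lay near that median, and Psph, at -51.5 bp, and Psat1, at -241.5 bp, lay upstream. The main TSS was inside 59% of the member islands and inside 70.0% of islands over all protein-coding genes.

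**Figure D4:**
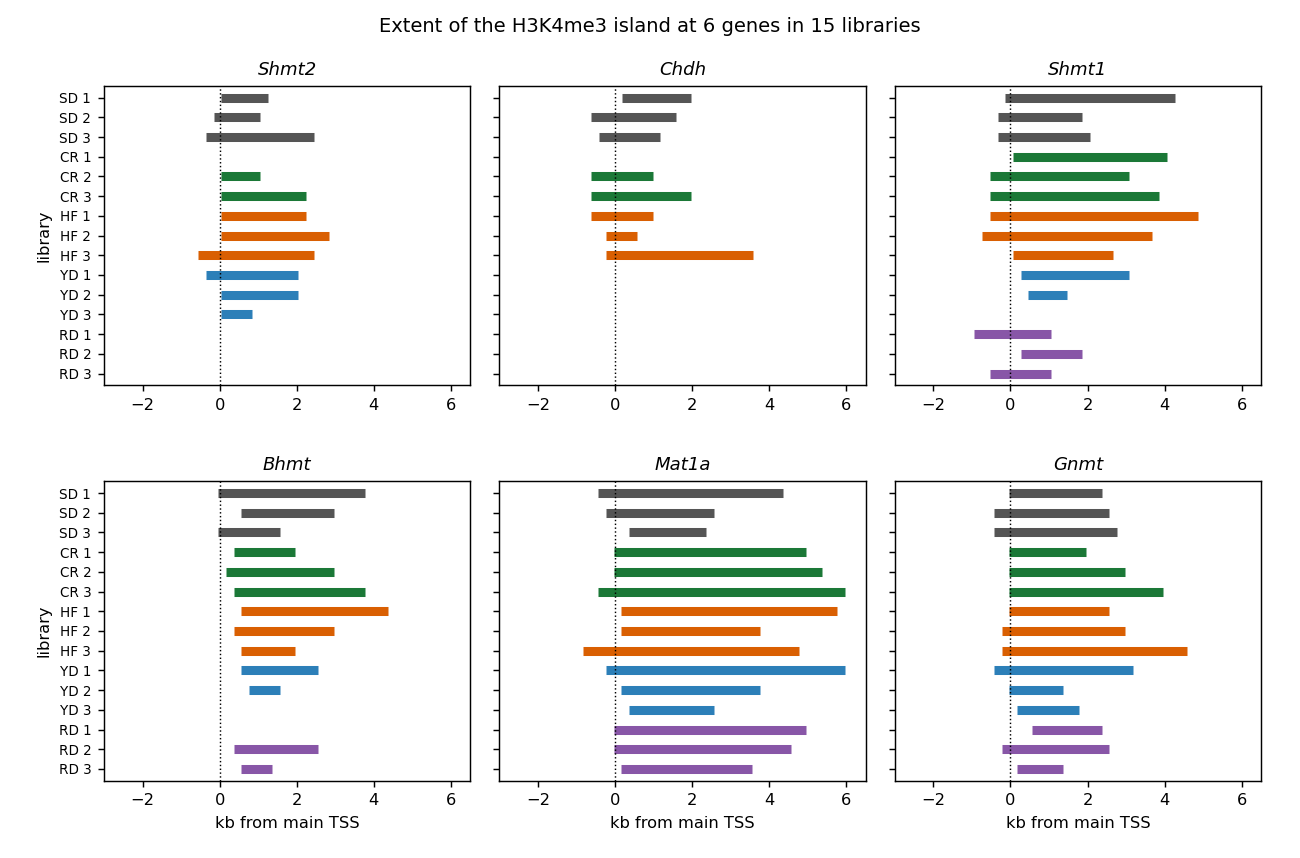
Extent of the island at 6 members in each of the 15 libraries (rows), as distance in kb from the main TSS (dotted line) along the strand of the gene, coloured by diet, with empty rows where no island lay within 1 kb of a TSS. Islands of Bhmt, Shmt2 and Mat1a extend to the right of the start, and the rows of RD are empty at Shmt2, as are those of YD and RD at Chdh.

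In the comparison of RD with SD, an island present in all 3 mice of one diet and in none of the other was lost for Shmt2 and Chdh, 2 of the 10 members, and gained for none. Over all 21755 protein-coding genes 1.05% were lost and 0.0276% gained by the same rule, and since the members were chosen on these values nothing is read from the difference. Of the 4 members with an island in all 6 lists, the percentiles of Psph, Shmt1 and Gnmt in RD were all below those in SD and none was above, where 6.89% of 3962 such genes were below and 1.69% above. Shmt1 was narrower without overlap, as were 10.2% of these genes.

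Between RD and YD, which share neither mice nor libraries, Shmt2 was lost and no member gained, where 0.0276% of protein-coding genes were lost and 1.09% gained. Of the 3 members with an island in all 6 lists, Mat1a was above and Gnmt below without overlap, where 17.2% of 2203 genes were above and 0.817% below. The comparisons with SD share the SD libraries, and RD is shared by both of its comparisons.

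In YD against SD, Chdh was lost and none gained, where 3.5% of protein-coding genes were lost and 0.0046% gained. Of 4 members with an island in all 6 lists Psph lay below without overlap and none above, where 25.3% of 2474 genes were below and 0.606% above. In HF against SD no member was gained or lost, where 1.82% of genes were gained and 0.00919% lost. Of 7 members with all 6 islands Shmt2 was above and Gnmt below, where 11.1% of 6271 genes were above and 1.07% below. In CR against SD no member was gained or lost, where 0.313% of genes were gained and 0.0184% lost, and none of 5 members with all 6 islands was above or below in percentile, where 5.9% and 0.798% of 5389 genes were. The wider island of Mat1a in CR stood beside 6.31% of these genes.

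The gains and losses depended on how deep each list was read. With the 7825 highest-scoring islands of every list, no member was gained or lost in any of the 5 comparisons. With islands at or above the median score the only such member was Shmt1, lost in YD against SD, and when a TSS had to lie inside the island Shmt1 took the place of Chdh in YD against SD and Chdh was no longer among those lost in RD. Keeping only the 10 libraries named ChIP leaves 3 mice of SD, 3 of YD and 2 of RD, so none of the 4 losses could fail to recur. That choice therefore says nothing on the part of library name in these losses.

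Around the members, 74 other genes of these pathways had an island in a median of 10.5 libraries, against 12 for the members and 3 for all protein-coding genes, and 7 of the 74 had one in all 15. Their share with an island moved between diets with that of all protein-coding genes. Of 21 genes of folate metabolism, 55.6% ± 15.3 had an island under SD, 63.5% ± 22.5 under CR, 82.5% ± 11.0 under HF, 25.4% ± 9.91 under YD and 42.9% ± 9.52 under RD. Of 24 genes of glycine and serine use and transport, the shares were 61.1% ± 8.67, 65.3% ± 20.6, 79.2% ± 4.17, 40.3% ± 13.4 and 43.1% ± 16.8 in that order of diets. Of 29 genes of methyl group supply and transsulfuration, they were 86.2% ± 5.97, 88.5% ± 13.9, 96.6% ± 0, 46.0% ± 13.9 and 64.4% ± 1.99 in the same order.

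**Figure D5:**
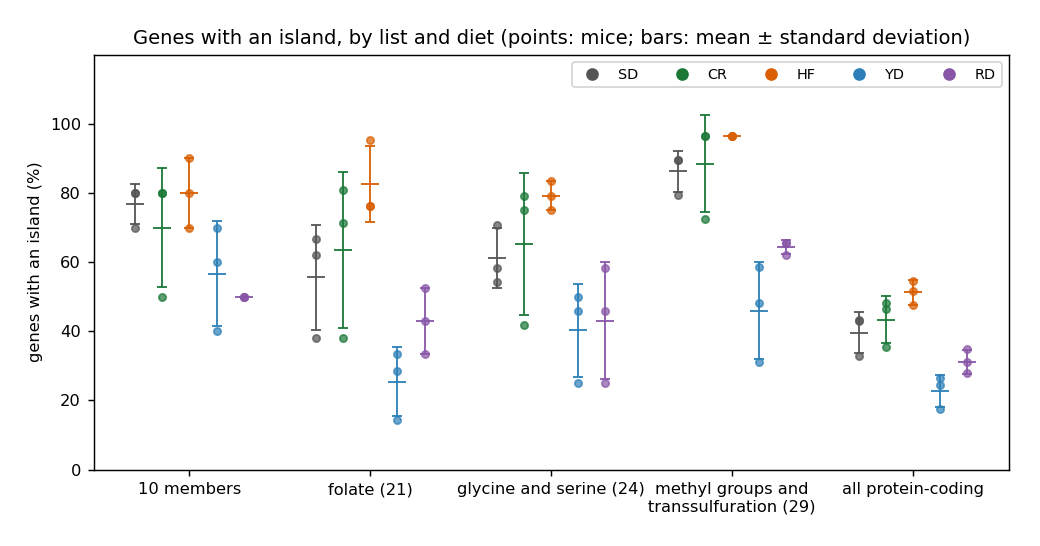
Share of genes with an island (%) in each mouse (points), with mean and standard deviation by diet, for the 10 members, the 3 lists of other pathway genes (number of genes in brackets) and all protein-coding genes. In each of the 3 lists and over all protein-coding genes the mean is highest in HF and lowest in YD, while over the members it is lowest in RD.

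In YD against SD, 3.5% of all protein-coding genes were lost by the same rule of 3 mice against 0. So were 5 of the 74 pathway genes, or 6.76%. They included Gamt, which makes creatine, Ahcyl1, a relative of the adenosylhomocysteine hydrolase, Chka, a choline kinase, and Gss, the glutathione synthetase. Slc1a4, a transporter of serine and other neutral amino acids, was gained in HF against SD. That is 1.35% of the 74, where 1.82% of all protein-coding genes were gained. None was gained or lost in CR or RD against SD. Over all protein-coding genes 0.313% were gained and 0.0184% lost in CR, and 0.0276% gained and 1.05% lost in RD. Of the 24 pathway genes with an island in all SD and RD lists 25% lay below SD in RD and 0 above, where 6.89% of all such protein-coding genes lay below and 1.69% above, and 2 of those 6, Bhmt2 and Dmgdh, share 1 island. The genes Aldh1l2, Sdsl, Tdh, Alas2, Dao and Sms had an island in no library.

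Among 12939 protein-coding genes outside the lists, the pattern most like that of Chdh over the 15 libraries, by Pearson's r of the percentile with absent islands set to 0, was that of Il17rb (r = 1), which has the same island in each library. Next came Pla2g15 (r = 0.975), a lysosomal phospholipase gene with an island in the same 8 libraries, and Polr2h (r = 0.971), a subunit gene of RNA polymerases. For Gldc they were Yjefn3 (r = 0.904), Asgr2 (r = 0.891) and Zfp750 (r = 0.877), and for Shmt2 AI464131 (r = 0.922), Nudt18 (r = 0.920) and F10 (r = 0.917). The points of each r share libraries and list lengths, so it is given as a description. AI464131 had an island in 2 of 3 RD mice and F10 in 1, so neither shared the absence of Shmt2 in RD, which of these 3 genes Nudt18 alone did.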

How the data were processed

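The authors aligned 50 bp single reads to mm10 with BWA, filtered them with SAMtools (mapped, MAPQ of at least 1, no duplicates, autosomes 1 to 19 and X), and called islands in each library with SICER2 (fragment 200 bp, window 200 bp, gap 400 bp, FDR 0.05). Tool versions are not given in the sources used here. The deposited score of an island is a sum over its windows and is not scaled between libraries, so only its percentile within a list was used.

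Diets were taken from the labels. Islands were assigned to a gene when a TSS of GENCODE M21 lay within 1 kb, and the highest-scoring island was kept. The main TSS is the outermost start of a principal transcript. A gene was gained or lost when one diet had an island in 3 of 3 mice and the other in 0, and not overlapping when all 3 percentiles or widths of one diet lay above all 3 of the other. Reads were recovered from the scores of islands of a single window with an effective genome fraction of 0.74, to within 0.00046 of a whole read. The depth behind a single island was not used, so errors are those between mice. Calculations used Python 3.11.15, numpy 2.4.6, pandas 2.3.3 and matplotlib 3.10.9, and the assignment was tested on simulated data.

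The members and all lists were chosen with earlier results of these data known, so no test was made. All 10 members are named. Other pathway genes are named when gained or lost in a comparison (at most 8) or marked in no library, except for results that are not reported here, genes of like pattern for the 3 members with fewest islands among those with 3 to 12, and neighbours when their TSS lies inside a member island. Marker lists covered hepatocytes, Kupffer, endothelial, stellate and bile duct cells and other organs. Of 6 stellate markers at most 3, and of 6 bile duct markers at most 2, had an island in any library. Alternatives changed the TSS distance, the transcripts, the score and width needed, the island kept, the percentile's base and the mice. The choice of libraries named ChIP was added after seeing the data.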

Additional observations from a re-analysis of the deposited data

How the results depend on the processing

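No value here comes from a test, and each is limited by n = 3 mice and by how long each list is. No paired analysis was possible because a replicate number names a separate animal in each diet, and the labels tie no mouse to its litter. With a TSS required inside the island, the mean number of members with an island was 6.333 in SD, 6.667 in HF and 3.333 in both YD and RD. With islands at or above the median score it was 6.333 in SD, 7 in HF, 2.667 in YD and 3.333 in RD, YD less SD was -3.667, RD less YD turned to 0.6667, the median number of libraries per member was 7, and 1 member and 12 of the other pathway genes were gained or lost, against 4 and 7. With the 7825 highest-scoring islands of every list, the mean was 6 in SD, 6.333 in HF and 3.667 in RD, CR less SD turned to 0.3333, and 0 members and 11 pathway genes were gained or lost. In libraries named ChIP alone, chosen after seeing the data, HF and CR were each left with 1 mouse. There HF stood at 9, CR less SD turned to 0.3333 and HF less SD was 1.333. By width, 2 member comparisons did not overlap, against 8 by percentile. Leaving out each mouse moved CR less SD between -1.167 and 0.3333 and HF less SD between -0.1667 and 0.8333, the sign turning without CR 1 and without HF 1. It moved YD less SD between -2.667 and -1.167 and RD less YD between -1.5 and 0. It moved the number of pathway genes gained or lost between 7 and 17, over 1.5 times the 7 of all mice without SD 1 (11), SD 2 (16), SD 3 (17), YD 1 (13) or RD 2 (13). With a mouse left out the rule for gains and losses asks for fewer mice, so this number could only stay or rise. In shorter lists fewer islands are left to count. The causes of the other changes were not tested.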
